A study of Mus musculus with 2 samples.

Results

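The 10 genes described here are 3 granzymes (Gzma, Gzmb, Gzmc), the pore former perforin (Prf1), 2 further granule genes (Nkg7 and Ctsw), the receptor chain Klrd1, the chemokine Xcl1 and 2 protease inhibitors of killer cells (Ctla2a and Serpinb9). They were chosen by gene symbol from the 32285 genes of the series. The data were single-cell RNA sequencing libraries of live CD45+ leukocytes sorted from digested skin of wild-type C57BL/6 mice at postnatal day 15. The mice of 1 group had received an antibody against Gr-1, an antigen shared by Ly6G and Ly6C, which the study used to deplete monocytes. The mice of the other group had received an isotype control antibody. Both antibodies were given every other day from day 4 to day 14, and the cells of 4 to 7 mice were pooled into 1 library for each group. With 1 library a group there was no replicate of either condition, so no test and no p-value was made. Every interval given is a 95% interval that covers counting error only.

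Members contributed 211552 unique molecular identifiers (UMIs, 1 per captured RNA molecule) in 7574 kept cells of the anti-Gr-1 library and 276752 in 16487 kept cells of the isotype control library. The libraries differed in depth, with a median of 7894 UMIs per kept cell under anti-Gr-1 and 5073 under isotype control, and they shared 61 cell barcodes. Cells were assigned to types by gates on marker genes that hold none of the 10 members. Of the kept cells, 45.9% under anti-Gr-1 and 29.6% under isotype control fell into a lymphoid gate, while 28.4% and 51.3% fell into none. The lymphoid classes were dendritic epidermal T cell-like (1374 anti-Gr-1 and 2093 isotype control cells), gamma-delta type 17 T cell-like (996 and 1314), regulatory T cell-like (259 and 445), conventional CD4 T cell-like (97 and 75), CD8 T cell-like (31 and 44), NK and ILC1-like (28 and 41) and ILC2-like (19 and 27). A further class of 676 and 842 cells without Cd3d or Cd3e UMIs was called Hlf Bmp2 Rora lymphoid cells after the genes that define it. The epidermal T cell gate held all 6 of its markers in both libraries, at a summed 4918 CPM (a gene's UMIs scaled to the total UMIs of the class) under anti-Gr-1 and 4751 under isotype control. NK and ILC1-like cells held 5 of the same 6 markers at 3709 and 3767 CPM, above the 638 and 1025 CPM of their own 8 NK markers. The other lymphoid classes held them at 404 to 1134 CPM. The epidermal T cell gate itself asked for Fcer1g and several of the other markers in this sum. The gamma-delta type 17 gate excluded cells with Tcrg-V5. These sums were therefore partly fixed by the gates. Female cells made up 21.9% of the sex-called epidermal T cells under anti-Gr-1 and 52.1% under isotype control. The same class held 74.4 and 146 CPM of 9 macrophage, dendritic and mast cell genes. The part of pool sex and of other cells' RNA in the results below was not tested.

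Cytotoxic lymphocytes store granzymes, which are serine proteases, together with perforin in granules and release both towards a target cell. Perforin opens the target's membrane and granzymes enter and cleave proteins inside it. Dendritic epidermal T cells are the gamma-delta T cells that lie between keratinocytes in mouse epidermis and are known for NK-type receptors and granule killing. Regulatory T cells can also carry granzyme B, and mouse granzyme C lies in a cluster of near-copies beside granzyme B.

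The stretches just upstream of 3 effector genes are shown because these genes had 3 different patterns over the lymphoid classes: Gzmb was highest in regulatory T cell-like cells, Gzmc in NK and epidermal T cell-like cells, and Prf1 in epidermal T cell-like cells. Each line gives the 250 bases before the RefSeq gene start in GRCm38.p6, read 5′ to 3′ on the gene's strand: chr14:56234658-56234907 on the minus strand for Gzmc, chr14:56262335-56262584 on the minus strand for Gzmb and chr10:61297586-61297835 on the plus strand for Prf1. Capitals mark letters of 4 motifs searched on both strands: TGTGGT of RUNX factors (ACCACA on the other strand), GGTGTGA of T-box factors, TGANTCA of AP-1 and GGAAGT of ETS factors (ACTTCC on the other strand).
Gzmc: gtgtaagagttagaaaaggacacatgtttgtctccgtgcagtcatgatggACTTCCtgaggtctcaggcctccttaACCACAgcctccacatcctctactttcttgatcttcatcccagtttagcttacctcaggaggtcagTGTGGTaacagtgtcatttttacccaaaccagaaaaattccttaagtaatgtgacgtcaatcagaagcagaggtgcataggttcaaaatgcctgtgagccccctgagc
Gzmb: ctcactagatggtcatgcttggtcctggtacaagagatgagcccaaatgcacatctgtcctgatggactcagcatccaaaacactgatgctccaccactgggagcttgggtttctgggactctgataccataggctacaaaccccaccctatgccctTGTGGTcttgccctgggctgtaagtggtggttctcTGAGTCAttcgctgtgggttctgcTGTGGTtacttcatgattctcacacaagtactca
Prf1: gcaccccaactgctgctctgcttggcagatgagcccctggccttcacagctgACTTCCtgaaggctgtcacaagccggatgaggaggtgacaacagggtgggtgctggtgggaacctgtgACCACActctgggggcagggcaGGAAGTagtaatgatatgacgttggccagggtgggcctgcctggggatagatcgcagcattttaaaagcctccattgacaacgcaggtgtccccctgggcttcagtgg
The RUNX letters were in 6 of the 8 members that had a window (Gzma, Gzmb, Gzmc, Nkg7, Prf1 and Xcl1) and in 14.1% of 32851 promoter windows of the same length. They stood 174 and 108 bases before the start of Gzmc, 93 and 34 bases before that of Gzmb, and 130 bases before that of Prf1. These distances are from the RefSeq starts. GENCODE M21 places the start of Gzmb 74 bases further downstream, and the 2 annotations differ by 1 base for Gzmc and 3 bases for Prf1. ETS letters were in 3 of 8 members (Gzmc, Prf1 and Xcl1; 19.7% of all windows), T-box letters in 2 of 8 (Nkg7 and Xcl1; 3.33%) and AP-1 letters in 2 of 8 (Gzmb and Ctla2a; 6.75%). The RefSeq start lies downstream of the GENCODE start by 65 bases for Nkg7 and by 1291 bases for Serpinb9. The T-box letters of Nkg7, 13 bases before its RefSeq start, are therefore inside the GENCODE gene. So is the whole window of Serpinb9, which held none of the 4 motifs. A match is a run of letters and not a measured binding site. Runx3, the RUNX factor of cytotoxic lymphocytes, had 664 CPM in epidermal T cell-like cells under anti-Gr-1 and 780 under isotype control, the highest of the 8 lymphoid classes in both libraries. In regulatory T cell-like cells, where Gzmb was highest, Runx3 was at 122 CPM under anti-Gr-1 and 136 under isotype control. Neither window of Ctla2a held the RUNX letters. A link between Runx3 and the members was not tested.

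**Figure D1:**
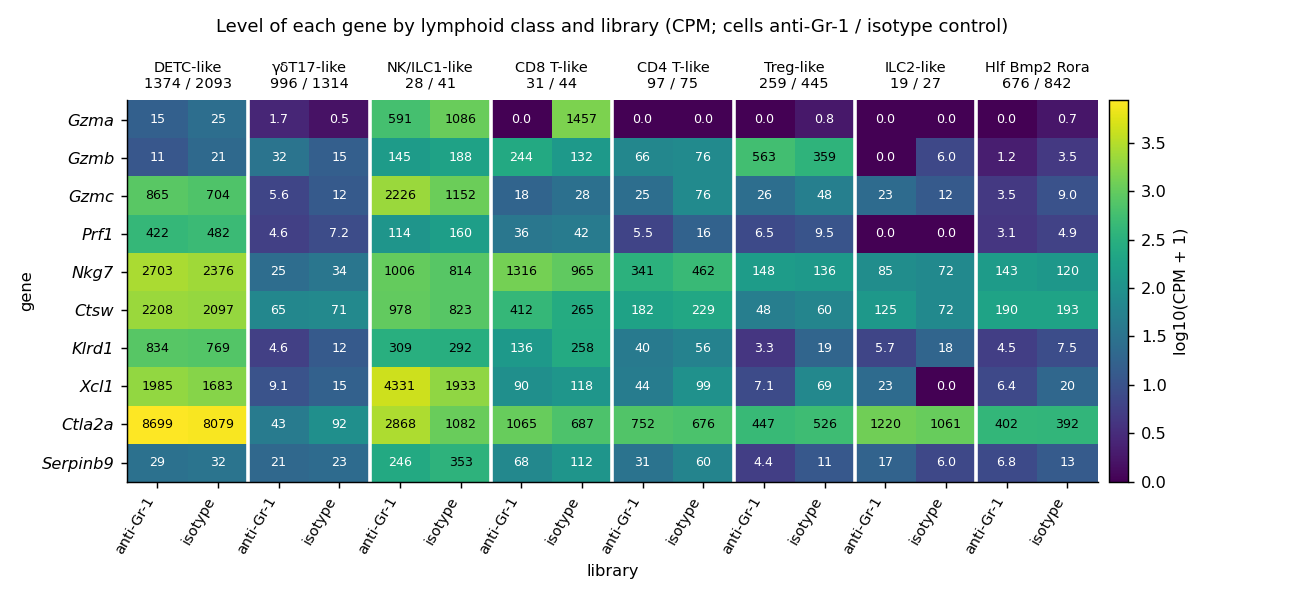
CPM of the 10 members (rows) in 8 lymphoid classes (columns), with the anti-Gr-1 library left of the isotype control library in each class; colour is on a log scale. Ctla2a, Nkg7, Ctsw, Klrd1 and Prf1 were highest in dendritic epidermal T cell-like cells in both libraries, and Gzmb in regulatory T cell-like cells.

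Epidermal T cell-like cells carried most of the UMIs of 7 members. They held 86.6% of all Prf1 UMIs of the anti-Gr-1 library and 71.5% of those of the isotype control library, and 72.5% and 61.0% of the Gzmc UMIs. The same cells held only 3.91% and 7.79% of the Gzmb UMIs and 16.8% and 16.5% of the Gzma UMIs. The class combined perforin and granzyme C with little granzyme A or B. The shares for each library also follow how many cells its gates left out: ungated cells held 10.6% of Prf1 UMIs under anti-Gr-1 and 24.4% under isotype control.

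**Figure D2:**
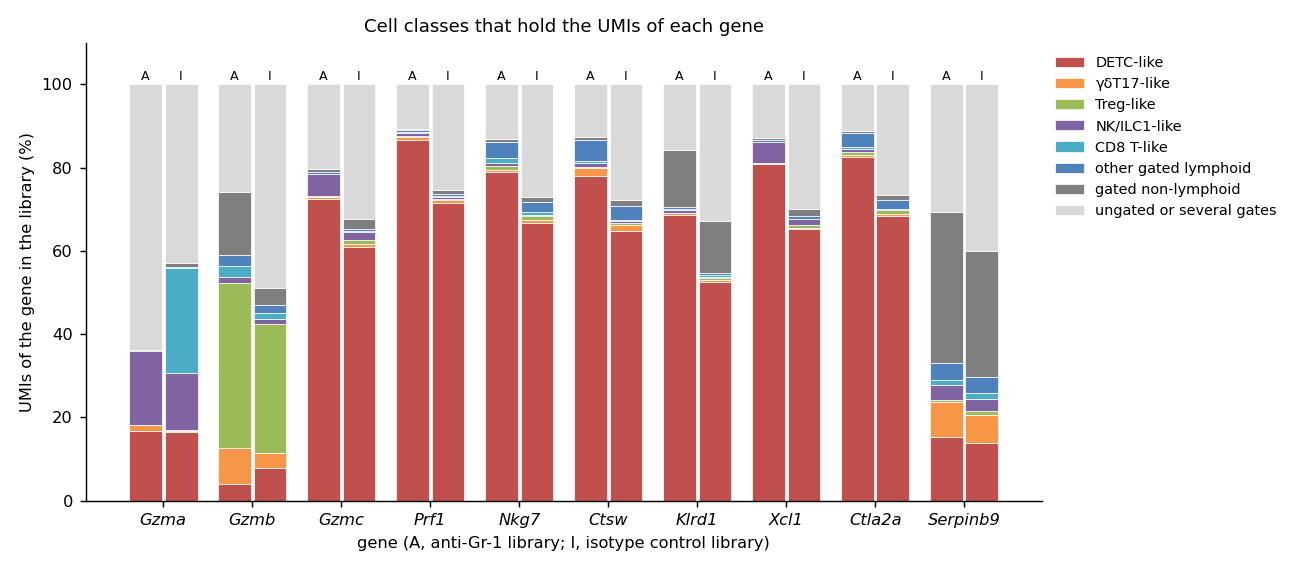
Percent of each member's UMIs that came from each class, as stacked bars, with the anti-Gr-1 bar (A) left of the isotype control bar (I). Epidermal T cell-like cells supplied most UMIs of Prf1, Gzmc, Nkg7, Ctsw, Klrd1, Xcl1 and Ctla2a, while Gzmb and Serpinb9 came from several classes.

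Granzyme B (Gzmb, ENSMUSG00000015437, chr14:56258838-56262260 in mm10, minus strand) cleaves caspases and their targets. Regulatory T cell-like cells had 563 CPM of it under anti-Gr-1 (529 to 598; 1032 UMIs in 144 of 259 cells) and 359 under isotype control (337 to 384; 912 UMIs in 192 of 445 cells). At least 1 UMI was in 55.6% of these cells under anti-Gr-1 (49.3 to 61.8) and 43.2% under isotype control (38.5 to 47.9). With every cell thinned to 2000 UMIs, the shares were 41.3% and 30.2%. Cells with 10 or more UMIs numbered 33 under anti-Gr-1 and 20 under isotype control. The level in regulatory T cell-like cells stood above that of every other lymphoid class in both libraries, beyond the counting intervals. Next came CD8 T cell-like cells, with 244 CPM under anti-Gr-1 and 132 under isotype control, and NK and ILC1-like cells, with 145 and 188, whose intervals overlapped. In epidermal T cell-like cells Gzmb was at 10.9 CPM under anti-Gr-1 (8.92 to 13.3; 50 of 1374 cells) and 20.9 under isotype control (18.3 to 23.8; 77 of 2093 cells). The lowest Gzmb level in a non-lymphoid class was 0 CPM under anti-Gr-1 (macrophage-like cells) and 0.880 under isotype control (mature dendritic-like cells). As a minimum over classes, it can understate the background from RNA of other cells.

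Granzyme A (Gzma, ENSMUSG00000023132, chr13:113093825-113100981, minus strand), a tryptase of NK cells and killer T cells, was carried by few cells with many UMIs each. In NK and ILC1-like cells 151 UMIs lay in 4 of 28 cells under anti-Gr-1 and 231 in 14 of 41 cells under isotype control, or 591 and 1086 CPM. CD8 T cell-like cells had no Gzma UMI in 31 cells under anti-Gr-1, where 3 counts would have been 10.8 CPM, and 418 UMIs in 10 of 44 cells under isotype control, or 1457 CPM. That class differed between the libraries in other genes too: 8 NK markers summed to 21.5 CPM in it under anti-Gr-1 and to 220 CPM under isotype control, and 5 keratinocyte genes to 10.8 and 1276 CPM. In epidermal T cell-like cells Gzma UMIs were in 6 cells under anti-Gr-1 and 14 under isotype control, with 122 and 77 UMIs in the richest cell. Over the whole libraries, 13 anti-Gr-1 and 33 isotype control cells held 10 or more Gzma UMIs, of which 7 and 13 were in no gate. Of those ungated cells, 5 and 8 had at least 2 NK markers.

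Granzyme C (Gzmc, ENSMUSG00000079186, chr14:56231441-56234656, minus strand) was the granzyme with most UMIs in these lymphocytes. Epidermal T cell-like cells had 865 CPM under anti-Gr-1 (847 to 885) and 704 under isotype control (688 to 720). A UMI was found in 44.7% of the cells under anti-Gr-1 and 38.7% under isotype control, and in 29.7% (27.3 to 32.2) and 28.4% (26.5 to 30.4) after thinning. The cells were unequal: the richest 137 cells under anti-Gr-1 and 209 under isotype control held 79.6% and 80.4% of the Gzmc UMIs, and the richest cell held 235 UMIs in each library. NK and ILC1-like cells had a higher Gzmc level than epidermal T cells, 2226 CPM under anti-Gr-1 and 1152 under isotype control, but from 11 of 28 and 9 of 41 cells, with 371 and 156 UMIs in a single cell. The other 6 lymphoid classes had between 3.46 and 25.6 CPM under anti-Gr-1 and between 8.96 and 76.3 under isotype control. Among them, gamma-delta type 17 T cell-like cells had 5.60 CPM under anti-Gr-1 and 12.2 under isotype control. Gzmc reads can be shared with near-identical granzymes of the same cluster, so its identity is less certain than that of Gzmb.

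Of 7 other granzymes, only Gzmf passed 20 UMIs over both libraries in epidermal T cell-like cells, at 20.1 CPM under anti-Gr-1 (187 UMIs) and 11 under isotype control (121 UMIs; ratio 1.82, 1.44 to 2.31). Gzmf is a near neighbour of Gzmc in sequence and place. Gzmd, Gzmg and Gzmn had 0 UMIs in both libraries, Gzme 1 under anti-Gr-1 and 0 under isotype control, Gzmk 0 and 2, and Gzmm 5 and 7.

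Perforin (Prf1, ENSMUSG00000037202, chr10:61297833-61304680, plus strand) was highest in epidermal T cell-like cells, unlike the 3 granzymes. It had 422 CPM there under anti-Gr-1 (409 to 435) and 482 under isotype control (469 to 495), with a median of 2 UMIs per cell in both. NK and ILC1-like cells came next, at 114 and 160 CPM, then CD8 T cell-like cells at 35.9 and 41.8. In regulatory T cell-like cells Prf1 was at 6.54 CPM under anti-Gr-1 and 9.46 under isotype control, so the class with most Gzmb had little perforin RNA. The lowest non-lymphoid level was 0.446 CPM under anti-Gr-1 and 0.624 under isotype control. After thinning, 51.1% of epidermal T cell-like cells carried a Prf1 UMI under anti-Gr-1 (48.5 to 53.8) and 58.9% under isotype control (56.8 to 61.1), and these intervals did not overlap.

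Nkg7 (ENSMUSG00000004612, chr7:43437073-43438249, plus strand), a granule membrane protein needed for full granule release in mouse T and NK cells, was in nearly every epidermal T cell-like cell: 99.9% under anti-Gr-1 and 99.1% under isotype control. It had 2703 CPM (2669 to 2736) and 2376 CPM (2348 to 2405) there. CD8 T cell-like cells had 1316 and 965 CPM and NK and ILC1-like cells 1006 and 814. Conventional CD4 T cell-like cells had 341 CPM under anti-Gr-1 and 462 under isotype control, more than regulatory T cell-like cells with 148 and 136. Ctsw (ENSMUSG00000024910, chr19:5465043-5468507, minus strand), a cysteine cathepsin of killer lymphocytes, had 2208 CPM in epidermal T cell-like cells under anti-Gr-1 and 2097 under isotype control and was in 99.6% and 99.2% of the cells. NK and ILC1-like cells followed with 978 and 823 CPM. Both genes were also present in the Hlf Bmp2 Rora cells, Nkg7 at 143 and 120 CPM and Ctsw at 190 and 193 CPM, well above the lowest non-lymphoid level of 3.57 and 12.7 CPM for Nkg7 and 5.80 and 9.68 CPM for Ctsw.

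Klrd1 (ENSMUSG00000030165, chr6:129591782-129598775, plus strand) encodes CD94, which pairs with NKG2 chains to read the MHC molecule Qa-1. Epidermal T cell-like cells had 834 CPM under anti-Gr-1 and 769 under isotype control, NK and ILC1-like cells 309 and 292, and CD8 T cell-like cells 136 and 258. In the other lymphoid classes, conventional CD4 T cell-like cells aside, Klrd1 was between 3.27 and 5.68 CPM under anti-Gr-1 and between 7.50 and 18.5 under isotype control, against a lowest non-lymphoid level of 1.79 and 5.78 CPM. Xcl1 (ENSMUSG00000026573, chr1:164931644-164935527, minus strand), the chemokine that draws Xcr1-bearing type 1 dendritic cells, had 1985 CPM in epidermal T cell-like cells under anti-Gr-1 (1957 to 2014) and 1683 under isotype control (1659 to 1708). The richest 137 cells under anti-Gr-1 and 209 under isotype control held 48.0% and 49% of its UMIs. NK and ILC1-like cells had 4331 and 1933 CPM of Xcl1, but 3 of the 28 anti-Gr-1 cells held 76.7% of that class's UMIs. Their median was 7.5 UMIs per cell under anti-Gr-1 and 6 under isotype control.

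Ctla2a (ENSMUSG00000044258, chr13:60934155-60936625, minus strand), a cathepsin propeptide-like inhibitor, had 8699 CPM in epidermal T cell-like cells under anti-Gr-1 and 8079 under isotype control, a median of 47 and 34 UMIs per cell. It was the member with the highest CPM in that class. Ctla2b, a near-identical copy, had 1182 and 1065 CPM, so part of either signal could belong to the other. Every lymphoid class but the gamma-delta type 17 T cells had at least 392 CPM of Ctla2a in both libraries. Serpinb9 (ENSMUSG00000045827, chr13:33003250-33017957, plus strand), an inhibitor that protects killer cells from granzyme B, was highest in NK and ILC1-like cells, at 247 CPM under anti-Gr-1 and 353 under isotype control. It had only 28.6 and 31.7 CPM in epidermal T cell-like cells. It belongs to a family of close copies, and its counts are uncertain to that degree.

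**Figure D3:**
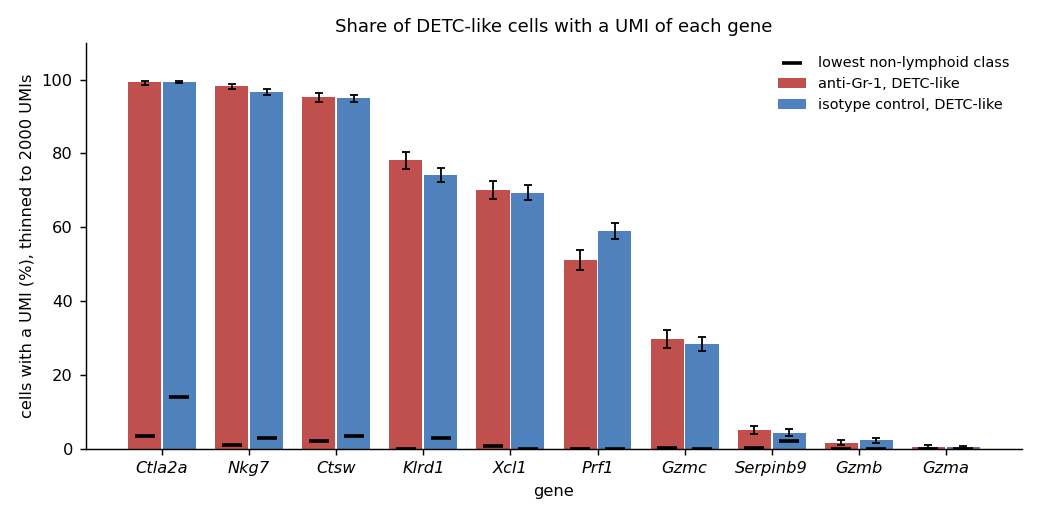
Percent of dendritic epidermal T cell-like cells with at least 1 UMI of each member after thinning every cell to 2000 UMIs, anti-Gr-1 left of isotype control, with exact 95% binomial bars and a black dash at the lowest share in a non-lymphoid class. Nkg7 and Ctsw were in over 94% of cells in both libraries, Prf1 in 51.1% and 58.9%, Gzmc in 29.7% and 28.4%, and Gzma, Gzmb and Serpinb9 in under 5%.

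Between the libraries, most members differed by less than 1.5-fold in epidermal T cell-like cells. None of the 10 was higher under anti-Gr-1 by the 1.5-fold limit on log2 ratios with 5 CPM added, and 1, Gzmb, was lower. Over all 11876 genes with at least 20 UMIs in this class, 0.16% were past the limit upwards and 1.64% downwards, or 0.337% and 0.985% with TMM scaling, which shifts every log2 ratio of this class by 0.14. The members' median log2 ratio was 0.09 and that of all genes was -0.10. Outside the members, Gzmf (log2 ratio 0.65) was past the limit upwards, the 1 gene counted of 7 other granzymes. The CPM ratio of anti-Gr-1 over isotype control was 0.523 for Gzmb (0.410 to 0.663), from 102 and 230 UMIs. Its log2 ratio was -0.70 and was -0.73 without the richest cell of each library. In clusters built without the members it turned to 0.24, with 11.7 CPM under anti-Gr-1 and 9.20 under isotype control, and it was inside the limit after thinning (-0.43), with equal weight for each cell (-0.31), with 20 CPM added (-0.40) and at a mitochondrial limit of 5% (-0.50). Gzma had a ratio of 0.611 (0.496 to 0.751) on 6 and 14 cells, and its log2 ratio of -0.57 became -3.08 with 1 more marker asked of each cell. Prf1 had a ratio of 0.875 (0.839 to 0.912). Gzmc was at 1.23 (1.19 to 1.27), Xcl1 at 1.18 (1.16 to 1.20), Nkg7 at 1.14 (1.12 to 1.16), Klrd1 and Ctla2a at 1.08, Ctsw at 1.05 and Serpinb9 at 0.903 (0.767 to 1.06). The last interval includes 1. By these ratios perforin and the granzymes did not share a direction: Gzmc stood above 1 and Prf1, Gzma and Gzmb below it. The log2 ratio of Prf1 was -0.19, beside the median of -0.10 over all genes and the TMM shift of 0.14. Split by the sex of the cell, the log2 ratio of Xcl1 was -0.16 among female cells and 0.54 among male cells. That of Prf1 was -0.04 among female cells and -0.36 among male cells. Among female cells that of Ctla2a was -0.01 and that of Gzmc 0.20. The part of pool sex was not tested.

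**Figure D4:**
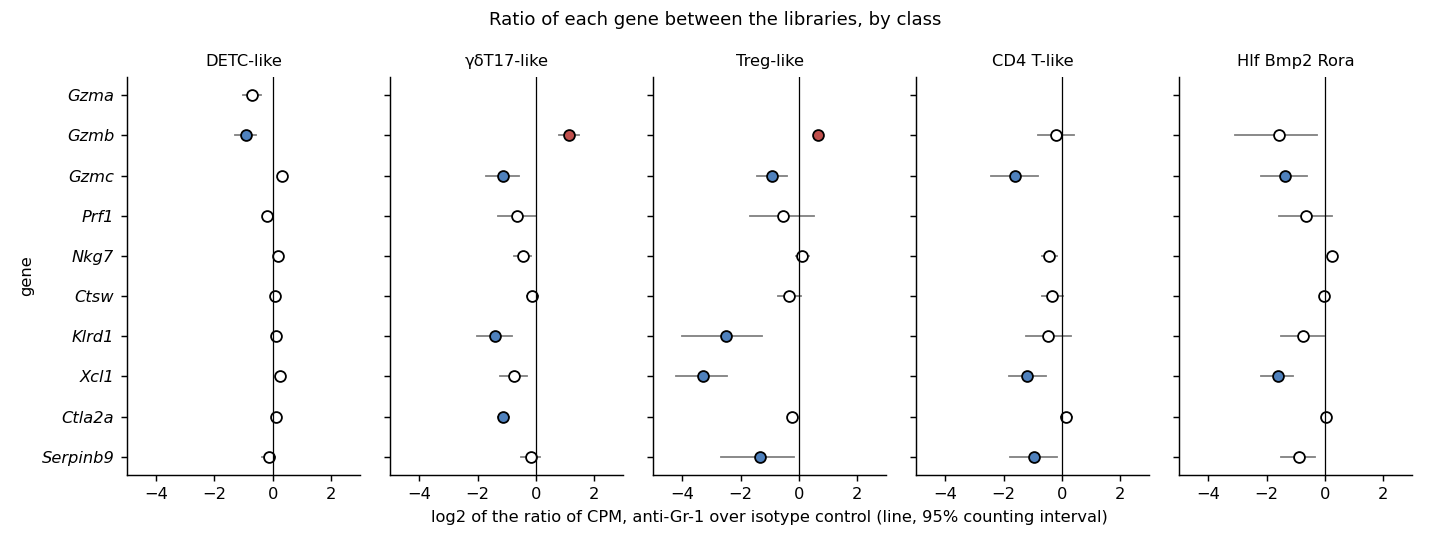
Log2 ratio of CPM, anti-Gr-1 over isotype control, with exact 95% counting intervals, for the members in 5 classes; points are red (higher) or blue (lower) where the ratio with 5 CPM added passed 1.5-fold, and genes under 20 UMIs are not drawn. Gzmb lay above 0 in gamma-delta type 17 and regulatory T cell-like cells and below 0 in dendritic epidermal T cell-like cells.

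Gamma-delta type 17 T cell-like cells, the dermal T cells known for IL-17, held little of most members, and Gzmb was the exception to the direction of the rest. It had 32.2 CPM under anti-Gr-1 (230 UMIs in 63 of 996 cells) and 14.7 under isotype control (108 UMIs in 61 of 1314 cells), a ratio of 2.20 (1.74 to 2.79). Cells with 10 or more Gzmb UMIs numbered 7 under anti-Gr-1 and 2 under isotype control. The thinned shares of cells with Gzmb were 3.23% and 1.89%. Of 9 members with 20 or more UMIs, this 1 was past the limit upwards and 3 (Gzmc, Klrd1 and Ctla2a) downwards, against 0.389% and 2.33% of 10795 genes, or 0.676% and 1.12% with TMM scaling. The median was -0.39 for the members and -0.12 for all genes. Ctla2a was at 42.6 CPM under anti-Gr-1 and 92.0 under isotype control (ratio 0.463, 0.403 to 0.531). Its lowest level in a non-lymphoid class was 16.5 CPM under anti-Gr-1 (type 1 dendritic-like cells) and 44.0 under isotype control (mature dendritic-like cells). These are different classes, so the pair does not compare the libraries alone. Klrd1 was at 4.62 and 12.2 CPM, beside a lowest non-lymphoid level of 1.79 (macrophage-like cells) and 5.78 (Langerhans-like cells). Gzmc had a log2 ratio of -0.70, which was -0.08 among female and -1.04 among male cells and came inside the limit also after thinning (-0.39), with 20 CPM added (-0.33) and without the richest cells (-0.54). With 20 CPM added Klrd1 was inside it too (-0.39). Ctsw, with 64.9 CPM under anti-Gr-1 and 70.6 under isotype control, was inside the limit.

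In regulatory T cell-like cells Gzmb was the 1 member past the limit upwards (ratio 1.57, 1.43 to 1.71), though close to it. Its log2 ratio of 0.64 was 0.57 in clusters, 0.50 among female cells, 0.49 after thinning and 0.38 with equal weight for each cell, all inside the limit of 0.585. Past it downwards were Gzmc, Klrd1, Xcl1 and Serpinb9, 4 of 9 counted. The background was 1.27% upwards and 9.05% downwards of 9071 genes, or 3.19% and 4.29% with TMM scaling. The members' median was -0.32 and that of all genes -0.16. Xcl1 had 13 UMIs in 13 anti-Gr-1 cells and 175 UMIs in 48 isotype control cells, or 7.09 and 69.0 CPM (ratio 0.103, 0.0537 to 0.180), and the richest isotype control cell held 36 of them. Its log2 ratio of -2.61 was -0.95 among male cells. Gzmc was at 25.6 and 48.5 CPM, with at most 2 UMIs in an anti-Gr-1 cell and 27 in an isotype control cell. It was inside the limit in clusters (-0.27), with equal weight for each cell (-0.42), after thinning (-0.50) and without the richest cells (-0.53). With 20 CPM added Serpinb9 was inside it (-0.35). Klrd1 was at 3.27 and 18.5 CPM. Ctla2a had 447 CPM under anti-Gr-1 and 526 under isotype control and Nkg7 148 and 136, inside the limit. The 6 epidermal T cell markers summed to 778 CPM in this class under anti-Gr-1 and 1134 under isotype control, and macrophage, dendritic and mast cell genes to 84.5 and 127 CPM; their part in the 4 lower genes was not tested.

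Conventional CD4 T cell-like cells, with 97 anti-Gr-1 and 75 isotype control cells, had 0 of 8 counted members past the limit upwards and 3 (Gzmc, Xcl1 and Serpinb9) downwards. Of 6112 genes 5.66% were past it upwards and 17.0% downwards, or 12.7% and 7.89% with TMM scaling, so the limit was passed often in a class this small. Gzmb, at 65.6 CPM under anti-Gr-1 and 76.3 under isotype control, was inside it, and 42 of its 60 anti-Gr-1 UMIs came from 1 cell. Gzmc was at 25.1 and 76.3 CPM (ratio 0.330, 0.187 to 0.569). Xcl1 was at 43.7 CPM under anti-Gr-1 and 98.9 under isotype control. Gzmc came inside the limit, at -0.13, with a mitochondrial limit of 5%, and Xcl1, also at -0.13, after thinning. With 1 more marker asked of each cell, Gzmc (-0.45) and Serpinb9 (-0.36) were inside it. The members' median was -0.42 against -0.15 over all genes.

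The Hlf Bmp2 Rora lymphoid cells carried Ctla2a (402 CPM under anti-Gr-1 and 392 under isotype control), Ctsw and Nkg7, but hardly any granzyme or perforin. Their Gzmb was at 1.15 and 3.48 CPM, Gzmc at 3.46 and 8.96, and Prf1 at 3.13 and 4.94. None of 9 counted members was past the limit upwards and 2, Gzmc and Xcl1, were past it downwards (0.356% and 3.18% of 10660 genes, or 0.929% and 1.30% with TMM scaling). Xcl1 was at 6.43 CPM under anti-Gr-1 and 19.8 under isotype control, beside a non-lymphoid level of 4.03 and 8.09. In clusters built without the members both turned positive, Gzmc at 0.12 and Xcl1 at 0.31. A cluster was named after its most frequent gated class, which could be a minority of its cells. Of the clusters named for this class, 1 held 86 of its cells among 229 gated cells. With 1 more marker Gzmc and Xcl1 were inside the limit (-0.57 and -0.43). Gzmc was inside it also among female cells (-0.54) and with 20 CPM added (-0.30). The members' median log2 ratio was -0.40 and that of all genes -0.13.

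Several members were also lower under anti-Gr-1 in non-lymphoid classes, where their levels were small. In type 2 dendritic-like cells 5 of 9 counted members (Gzmc, Nkg7, Ctsw, Xcl1 and Ctla2a) were past the limit downwards and 0 upwards, against 0.399% and 0.0509% of 11780 genes. Ctla2a was there at 20.5 CPM under anti-Gr-1 and 51.8 under isotype control. In macrophage-like cells 6 of 7 were past it downwards, and 0 upwards, against 4.07% and 1.51% of 9662 genes, and Ctla2a was at 27.4 and 67.3 CPM. Gzmc and Xcl1, both past the limit downwards in regulatory, conventional CD4 and Hlf Bmp2 Rora cells, are among them, and the part of RNA from other cells was not tested.

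ILC2-like cells, 19 under anti-Gr-1 and 27 under isotype control, had 1220 and 1061 CPM of Ctla2a, 125 and 72.4 CPM of Ctsw and 85.2 and 72.4 CPM of Nkg7. No Prf1 UMI was found in them in either library.

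Single epidermal T cell-like cells usually carried 5 or 6 of the 10 members at 2000 UMIs: 34.6% carried 5 and 33.7% carried 6 under anti-Gr-1, and 33.8% and 33.1% under isotype control. The mean was 5.29 members per cell in each library. Gzmc and Xcl1 went together. A UMI of Xcl1 was in 81% of cells with Gzmc and 65.6% of cells without it under anti-Gr-1, and in 78.3% and 65.9% under isotype control. Mean Xcl1 was 3.26 UMIs in cells with no Gzmc UMI, 4.56 in cells with 1 to 2 and 7.08 in cells with 3 or more under anti-Gr-1, and 2.90, 3.71 and 6.14 under isotype control. Ctsw followed the same order, with 3.84, 5.34 and 6.65 UMIs under anti-Gr-1 and 3.72, 5.12 and 5.87 under isotype control. Prf1 did not: its means were 0.871, 0.760 and 0.769 UMIs under anti-Gr-1 and 1.04, 0.962 and 0.938 under isotype control, with overlapping intervals. Gzmb was found with Gzmc in 9 of 20 Gzmb cells under anti-Gr-1 and in 18 of 47 under isotype control, 1.52 and 1.35 times the product of the 2 shares.

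**Figure D5:**
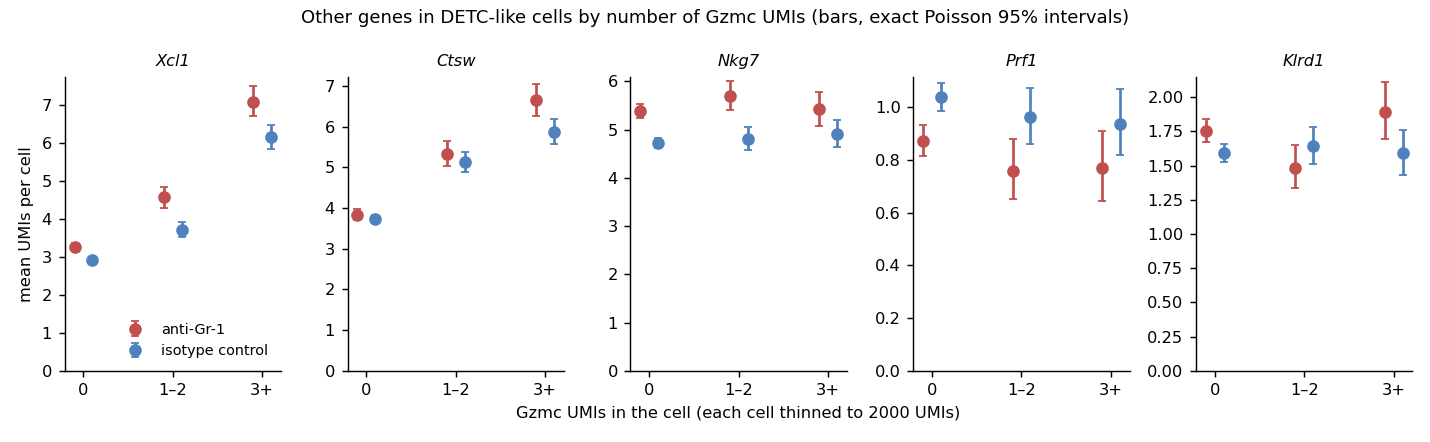
Mean UMIs per dendritic epidermal T cell-like cell, thinned to 2000 UMIs, of Xcl1, Ctsw, Nkg7, Prf1 and Klrd1 in cells with 0, 1 to 2 or 3 or more Gzmc UMIs, anti-Gr-1 left of isotype control, with 95% counting bars. Xcl1 and Ctsw were higher in each step of Gzmc in both libraries. The mean of Prf1 was highest in cells with no Gzmc UMI, but its counting bars overlapped between the steps.

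By their cell cycle genes, 44 epidermal T cell-like cells under anti-Gr-1 and 50 under isotype control were cycling. They had a lower CPM of Prf1, Klrd1, Gzmc, Nkg7, Ctsw and Ctla2a than the other cells of the class in both libraries. CPM is relative to all UMIs of the cells. In UMIs per cell, Prf1 and Klrd1 were lower in cycling cells in both libraries, but Gzmc, Nkg7, Ctsw and Ctla2a were higher. Nkg7 had 1209 UMIs in the 44 cycling cells and 24001 in 1330 others under anti-Gr-1. Prf1 was at 133 CPM in cycling and 441 in other cells under anti-Gr-1, and at 243 and 494 under isotype control. Klrd1 was at 351 and 866 CPM under anti-Gr-1 and at 332 and 790 under isotype control. Gzmc was at 508 and 889 CPM under anti-Gr-1 and at 484 and 714 under isotype control. Nkg7 (2062 and 2746 CPM under anti-Gr-1, 1904 and 2399 under isotype control), Ctsw (1620 and 2247, 1416 and 2130) and Ctla2a (7120 and 8805, 6254 and 8167) were also lower in cycling cells. Gzma was at 15.4 and 15.3 CPM under anti-Gr-1 and at 67.2 and 23.1 under isotype control, from 9 and 34 UMIs in the cycling cells. Xcl1 had no common direction, with 2294 CPM in cycling and 1964 in other cells under anti-Gr-1 and 1453 and 1694 under isotype control.

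Other genes of the killing machinery in epidermal T cell-like cells were described by lists chosen with earlier results of these data known, and are read against the same 0.16% and 1.64%. Of 12 genes for granule loading, maturation and release, 0 were past the limit either way (median -0.11). Stx11, a release syntaxin, was at 4.93 CPM under anti-Gr-1 and 9.0 under isotype control, and Unc13d, which primes granules, at 39.2 and 50.4. Stxbp2, a partner of Stx11, was at 30 and 39.1 CPM. Rab27a, which docks granules, was at 147 and 177 CPM. The granule proteoglycan Srgn was at 938 and 870 CPM. Granzyme and cathepsin inhibitors had 0 of 7 past the limit (median 0.14), with the serpin Serpinb6a at 40.9 and 35.1 CPM, the cystatins Cst7 at 216 and 190 and Cst3 at 297 and 328, and Ctla2b as given above. Death ligands had 0 of 4 (median 0.01), with Tnf at 86.2 CPM under anti-Gr-1 and 79.9 under isotype control, Tnfsf10 at 57.0 and 65.0, Fasl at 12.8 and 12.1, and Lta at 28.2 and 28.9.

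Activating NK receptors and adaptors had 0 of 14 past the limit upwards and 2 downwards (median -0.04), some of which also served in the gate. The 2 were the adaptor Tyrobp, at 45.4 CPM under anti-Gr-1 and 72.5 under isotype control, and the Fc receptor Fcgr3, at 1.39 and 5.0. Both are also myeloid genes, and macrophage, dendritic and mast cell genes stood at 74.4 and 146 CPM in this class. The part of RNA from other cells was not tested for these 2 genes or for any other gene of these lists. Inside the limit, Cd160 was at 129 and 105 CPM and Ncr1 at 0.536 and 1.45. Of 6 counted inhibitory receptors 0 were past the limit (median -0.20). Pdcd1 was closest to it, at 0.858 CPM under anti-Gr-1 (8 UMIs) and 3.54 under isotype control (39 UMIs), followed by Klrg1 at 0.429 and 1.73, Cd200r1 at 2.14 and 3.36 and Cd96 at 524 and 591. Among 8 counted transcription factors of cytotoxic lymphocytes 0 were past it upwards and 2 downwards (median -0.28): Zeb2 at 5.36 CPM under anti-Gr-1 and 16 under isotype control, and Ikzf3 at 9.01 and 19.0. Bhlhe40 was at 20.8 and 30 CPM and Prdm1 at 1.07 and 2.63. Eomes had 0 UMIs under anti-Gr-1 and 12 under isotype control, and Tbx21 was at 4.29 and 3.73 CPM. Of 5 counted ligands and partners of the members 0 were past the limit (median -0.03), and H2-T23, which encodes Qa-1, the ligand of the Klrd1 receptor, was at 175 and 154 CPM. Cd48 was at 197 and 175 CPM, Clec2d at 204 and 223 and Xcr1 at 0.750 and 1.36.

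The genes with the most similar patterns were sought over 11 classes in 2 libraries, 22 points that share libraries. These were the classes with at least 50 cells in both libraries, so NK and ILC1-like and CD8 T cell-like cells were left out. By Pearson correlation of log2 CPM with 5 added, among 5456 genes, Gzmc was closest to Trat1, Themis and Xcl1 (each 0.97) and Prf1 to Trpm6, Trat1 and Crtam (each 0.98). Nkg7 was closest to Ctla2a (0.98), Pitpnm2 and Ctla2b (each 0.95), and Ctla2a to Nkg7 (0.98), Ctla2b (0.96) and Pitpnm2 (0.95). Xcl1 was closest to Trat1, Gzmc and Prf1 (0.97, 0.97 and 0.96) and Ctsw to Cd160, Cd96 and Pim2 (0.97, 0.96 and 0.95). Gzmb stood with Gimap1, Gpr174 and Ikzf2 (0.90, 0.90 and 0.88), Klrd1 with Klrb1a, Cd7 and Gpr18 (0.86, 0.84 and 0.82) and Serpinb9 with Gnl2, Atxn7l1 and Sinhcaf (0.93, 0.90 and 0.89). Gzma, which was near 0 in most of the 11 classes, stood with Adamtsl3, Kir3dl1 and Fam71b (each 0.98). The classes with its highest levels were among those left out. Within the 11, its highest level was in epidermal T cell-like cells, at 15.3 CPM under anti-Gr-1 and 25.1 under isotype control. Those values came from 6 and 14 cells.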

How the data were processed

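The deposited values are raw counts of UMIs per gene and cell barcode. Per the file headers and labels they came from Cell Ranger 4.0.0 on 10x 3′ v2 libraries, with build mm10 per the submitters' processing notes (mms10 in the labels). The deposited libraries held 9110 anti-Gr-1 and 21311 isotype control barcodes, with 85142470 and 125253392 UMIs.

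Filters kept 8047 and 19542 barcodes, those with 200 or more genes, 500 or more UMIs and a mitochondrial share under 10%. Doublets were scored with scrublet in scanpy 1.11.5. Its automatic threshold removed 473 anti-Gr-1 barcodes (5.88%). For isotype control it marked 32.8%, over a limit of 25%, so the 3055 highest scores were removed, at 0.8% per 1000 barcodes. The filtered libraries shared 52 barcodes.

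Gates asked for a number of marker genes and for the absence of other lineages' markers. These numbers were set after marker detection was seen and without reading the members. The members, lists and the Hlf, Bmp2 and Rora markers were chosen with earlier results of these data known. UMIs were summed over the cells of each class and library and divided by the class total (CPM). A member was counted in a class with at least 20 UMIs over both libraries, in classes with at least 50 cells in both, and was past the limit at 1.5-fold on log2 ratios with 5 CPM added. Ratios carry exact conditional, levels exact Poisson and shares Clopper-Pearson intervals. The background from RNA of other cells is the lowest level over non-lymphoid classes with at least 100 cells in that library. There were 4 such classes under anti-Gr-1 and 7 under isotype control, and a minimum can understate the background. The lowest class could differ between the libraries, so the 2 minima of a gene do not compare the libraries alone. Named genes were all 10 members, the 3 most correlated genes of each among genes with at least 50 CPM in 1 class, up to 4 genes with the largest log2 ratio from each list, and genes a result turned on. Promoter windows are from RefSeq (GRCm38.p6), which matched 8 of 10 members by symbol. Redrawn counts of 11876 genes in epidermal T cell-like cells, 200 of them changed, gave intervals that covered 95.8% of unchanged ratios. The redraw used Poisson counts, which the intervals assume too. It therefore checked the calculation only, and not the uneven spread of UMIs over cells or mice. TMM factors came from edgeR 4.0.16 in R 4.3.3. Python 3.11.15, numpy 2.4.6, scipy 1.17.1, pandas 2.3.3, anndata 0.12.19, igraph 0.11.9 and matplotlib 3.10.9 were used.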

Additional observations from a re-analysis of the deposited data

Results flagged for a closer look

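Some members were found in classes outside the lymphoid comparison, at 10 or more times the lowest non-lymphoid level and with at least 20 UMIs in both libraries. Gzmb was at 995 CPM in 26 basophil-like cells under anti-Gr-1 and 281 CPM in 26 under isotype control, from 9 and 4 cells. In mast cell-like cells Gzmb was at 106 and 28.8 CPM, and 129 of the 212 anti-Gr-1 UMIs came from 1 cell. Gzmc was at 263 and 289 CPM in basophil-like cells, from 3 cells in each library. Klrd1 was at 105 CPM in type 2 dendritic-like cells under anti-Gr-1 and 120 under isotype control, with a UMI in 42.1% and 43.9% of the cells, or 14.3% and 16.4% after thinning. Serpinb9 was at 349 CPM in mature dendritic-like cells under anti-Gr-1 and 376 under isotype control, with a UMI in 54 of 77 and 79 of 126 cells.

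Gzmb had opposite directions between classes, with log2 ratios of anti-Gr-1 over isotype control of -0.70 in epidermal T cell-like cells, 0.92 in gamma-delta type 17 T cell-like cells and 0.64 in regulatory T cell-like cells. Xcl1 in epidermal T cell-like cells was at -0.16 among female cells and 0.54 among male cells. Serpinb9 in gamma-delta type 17 T cell-like cells was at -1.07 among female and 0.43 among male cells. With 1 library a group, none of these differences was tested.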

How the results depend on the processing

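No paired analysis was possible because each group had 1 library. Alternatives gave 114 counts of members past the limit, of which 89 stayed within 1.5 times the main count and 25 did not. Of 543 log2 ratios, 75 moved beyond their counting interval and 29 changed sign, 8 of them with clusters in place of gates, 6 among female cells, 5 after thinning and 3 each with TMM scaling and among male cells. Of 100 shares of cells with a UMI, 90 moved on thinning. Ratios that were past the limit changed sign 3 times, with clusters: Gzmb in epidermal T cell-like cells was at 0.24, and Gzmc and Xcl1 in Hlf Bmp2 Rora cells at 0.12 and 0.31. Counts of members that moved are given here without the share of all genes past the limit in the same setting. They show only how the calls depended on the processing, and are not read as results about the members. With clusters, 0 were lower in epidermal T cell-like cells, 0 higher in regulatory T cell-like cells, and 1 (Gzma) higher and 0 lower in Hlf Bmp2 Rora cells; no cluster was named for conventional CD4 T cells. With 1 more marker, 2 were lower in epidermal, 1 in conventional CD4 and 7 in regulatory T cell-like cells and 1 in Hlf Bmp2 Rora cells. After thinning, 0 were lower in epidermal T cell-like cells and 0 higher and 1 lower in regulatory ones. With equal weight for each cell, 0 were lower in epidermal, 6 in gamma-delta type 17 and 5 in conventional CD4 T cell-like cells and 4 in Hlf Bmp2 Rora cells, and 0 were higher in regulatory ones. A pseudocount of 1 CPM gave 2 lower in epidermal T cell-like and 5 in Hlf Bmp2 Rora cells, and 20 CPM gave 0, 1 in gamma-delta type 17 and 1 in Hlf Bmp2 Rora cells. A mitochondrial limit of 5% gave 0 lower in epidermal T cell-like cells. Among female cells 2 were lower in epidermal and 0 higher in regulatory T cell-like cells, and among male cells 2 were lower in regulatory ones. The causes were not tested.

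TMM scaling, keeping doublets and using no minimum of UMIs moved no count past 1.5 times; TMM shifted log2 ratios by 0.14 to 0.24 in the 5 classes. Gzmb in gamma-delta type 17 T cell-like cells was past the limit upwards in 14 of 14 settings (0.59 to 1.14), Ctla2a there downwards in 14 of 14 (-1.40 to -0.84) and Xcl1 in regulatory T cell-like cells downwards in 14 of 14. Gzmb in regulatory T cell-like cells was above 0 in 14 and past the limit in 10 (0.38 to 0.82). Leaving out the richest cell of each gene was chosen after seeing the data. Classes under 50 cells and 1 library a group limit what these counts can show.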
